A study of Canis lupus with 20 samples.

Results

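Of the 43035 probe sets on the arrays, 11 report the 5 genes described here, which move calcium in heart muscle or restrain a calcium-activated phosphatase: ATP2A2, PLN, RYR2, SLC8A1 and RCAN1. They are 5 of 15115 genes that the arrays report by a probe set with 1 symbol. Their probe sets are those whose only gene symbol in the supplied annotation is 1 of these 5 names. All 5 genes have such a probe set, and all 11 passed the filter on low signal. The arrays hold RNA of whole heart tissue from normal dogs taken 12 weeks after right-sided uninephrectomy, the surgical loss of 1 kidney, or a sham operation, with no gene altered and no drug named. Left atrium and left ventricle of sham and of uninephrectomized dogs make 4 groups, with 5 arrays in each. Breed and age are not given in the sources used here. The design assigned 6 dogs to each operation and put 5 samples of each chamber on arrays, without technical replicates, so the replicates are samples of separate dogs within a group.

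In heart muscle cells calcium enters at each beat through channels of the surface membrane and triggers a larger release from the sarcoplasmic reticulum through the ryanodine receptor RYR2. Relaxation needs the pump SERCA2, encoded by ATP2A2, which returns calcium to the reticulum and is held back by the small membrane protein phospholamban (PLN) until phospholamban is phosphorylated. The sodium-calcium exchanger, encoded by SLC8A1, removes calcium across the surface membrane. Sustained calcium signals also activate the phosphatase calcineurin, which dephosphorylates NFAT transcription factors and is known for its part in cardiac hypertrophy. RCAN1 binds and restrains calcineurin, and one of its promoters is itself an NFAT target.

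All values are log2 signals as deposited, and a difference of 1 is a change by a factor of 2. Probe sets of different genes, and different probe sets of 1 gene, do not share a scale, so levels are compared only across arrays. Names ending in _s_at mark probe sets that can match more than 1 transcript. The comparisons set uninephrectomized against sham dogs within a chamber, set these responses of atrium and ventricle against each other, and set atrium against ventricle within an operation. Differences are given ± standard error from limma in a fit of all 20 arrays, n = 5 per group, and a probe set passed when its p, adjusted by Benjamini-Hochberg over 30047 tested probe sets, was under 0.05. Where an exact permutation p is given, it is two-sided over 252 splits of 10 arrays, and 0.00794 is the smallest it can reach.

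The arrays had medians of 2.33 to 2.39, and the highest correlation between any pair of arrays was 0.996, with 0 identical pairs. The tissue labels were borne out by markers. The mean of 11 cardiomyocyte markers lay between 12.48 and 13.03 in every array. All 4 atrial markers tested were higher in atria and all 3 ventricular markers were higher in ventricles. RNA quality was followed by the 3' gap, the log2 signal of the 3' control probe sets minus that of the middle ones, averaged over ACTB, GAPDH and EEF1A. It ran from 0.66 to 1.55, with group means of 0.90 in sham atrium, 0.85 in uninephrectomized atrium, 1.16 in sham ventricle and 0.94 in uninephrectomized ventricle. The widest gap was that of sham ventricular array 3.

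PLN and SLC8A1, and RCAN1 in uninephrectomized dogs, were lower in the atrium, while no member passed between operations. No member probe set passed after uninephrectomy in either chamber, beside 0% of the 30047 tested probe sets in the atrium and 0% in the ventricle. None had groups without overlap between operations, beside 0.929% of tested probe sets in the atrium and 0.992% in the ventricle. In the ventricle the RCAN1 probe sets were the 2 of 11 members at an unadjusted p under 0.05, where 2005 probe sets (6.67%) were so in all. In the atrium 0 of 11 members and 2010 probe sets were. Between chambers 3 of 11 were lower in the atrium in sham dogs and 5 of 11 in uninephrectomized dogs, and 0 were higher. Over all tested probe sets 9.62% were lower in the sham atrium and 12.5% in the uninephrectomized atrium, and 20.8% and 27.3% passed in either direction. The members that passed were PLN and SLC8A1 in both operations, and RCAN1 in uninephrectomized dogs. The median of the 11 chamber differences was -0.23 in sham and -0.28 in uninephrectomized dogs, beside -0.01 and -0.02 over all tested probe sets. Tested probe sets with a mean of at least log2 13, where some of the 11 lie, had medians of -0.15 and -0.15. The 11 are probe sets of 5 genes and not separate observations.

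RCAN1 had the largest differences between operations among the members. Its brighter probe set also had the widest spread of the members, with a within-group SD of 0.596 that exceeded that of 96.1% of tested probe sets. Its probe set Cfa.20750.1.S1_at read 5.10, 4.90, 3.61, 4.71 and 5.46 in the sham ventricles 1 to 5. The uninephrectomized ventricles read 6.09, 6.31, 6.68, 5.55 and 5.06. Of the uninephrectomized ventricles 4 lay above every sham ventricle and the fifth lay within the sham range, and sham array 3 was the lowest. The means were 4.76 ± 0.70 (SD) in sham and 5.94 ± 0.64 (SD) in uninephrectomized ventricles. The difference of 1.18 ± 0.35, a 2.27-fold change with a 95% interval of 0.44 to 1.92, did not pass in limma (adjusted p = 0.558, 5 of 5 uninephrectomized arrays above the sham mean). An exact permutation test of this probe set alone gave p = 0.0238, not adjusted for other genes.

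In the atrium the same RCAN1 probe set read 3.87, 3.83, 3.44, 4.80 and 4.43 in sham arrays and 5.48, 5.05, 4.62, 4.58 and 4.23 in uninephrectomized arrays. The groups overlapped, with 2 uninephrectomized arrays above every sham array. The atrial difference was 0.72 ± 0.35 (95% interval -0.02 to 1.46), and neither limma (adjusted p = 0.756) nor the exact permutation test (p = 0.0635) reached 0.05. By mean, the groups ran from sham atrium at 4.07 ± 0.54 (SD) through sham ventricle at 4.76 and uninephrectomized atrium at 4.79 ± 0.48 (SD) to uninephrectomized ventricle at 5.94. The middle groups lay within their spread of each other. The atrial effect minus the ventricular effect was -0.46 ± 0.50 (adjusted p = 1 in limma), with a 95% interval of -1.51 to 0.58 that holds equal effects and effects that differ widely.

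The other RCAN1 probe set, CfaAffx.15026.1.S1_s_at, is dim: in each group but the uninephrectomized ventricle all 5 arrays read under log2 3, where low signals crowd and differences are compressed. It read 2.89, 2.69, 2.57, 2.54 and 2.53 in sham ventricles and 3.04, 3.42, 3.86, 3.32 and 2.72 in uninephrectomized ventricles. Again 4 of 5 uninephrectomized ventricles lay above every sham ventricle. The difference was 0.63 ± 0.15 (adjusted p = 0.484 in limma), with an exact permutation p of 0.0159. In the atrium this probe set differed by 0.12 ± 0.15, from 2.27 ± 0.08 (SD) to 2.38 ± 0.22 (SD). The difference between the chambers' responses was -0.51 ± 0.22, with an unadjusted p of 0.0293 in limma and an adjusted p of 1.

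**Figure D1:**
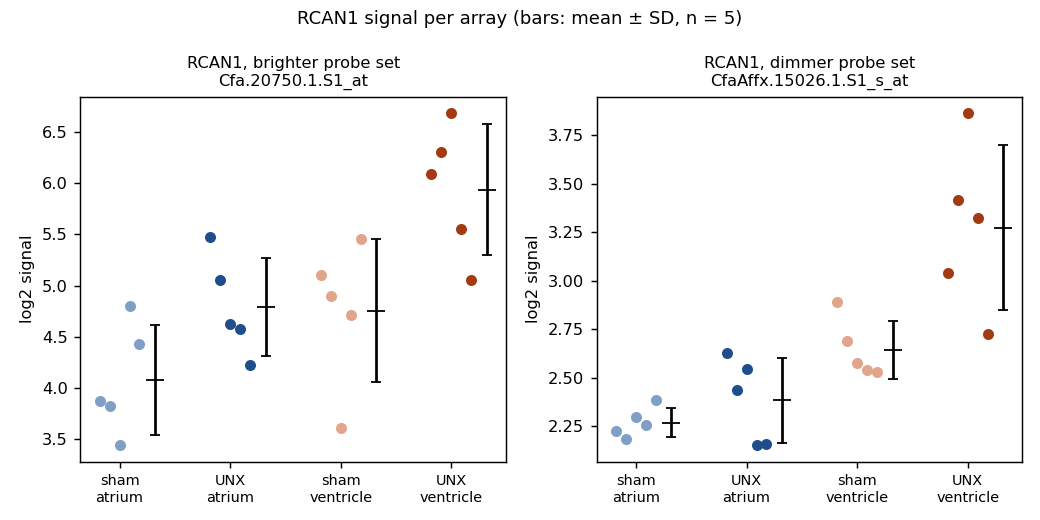
RCAN1 log2 signal (UNX, uninephrectomized) in each of 20 arrays for its brighter (left) and dimmer (right) probe set, by group, in the order of the array numbers, with group mean and SD (n = 5). In both panels 4 of the 5 uninephrectomized ventricles lie above every sham ventricle, while the groups overlap in the atrium.

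RCAN1 signals followed the 3' gap across arrays. Over the 20 arrays, after each group's mean was taken off, the brighter probe set correlated with the gap at a Pearson r of -0.632 and a Spearman rho of -0.547 (permutation p adjusted over 20 relations, 0.00869 and 0.0316). Without the 2 arrays of the most extreme gap, r was -0.522. Arrays with a wider gap read lower, and the sham ventricles had a wider mean gap than the uninephrectomized ventricles by 0.23 (exact permutation p = 0.119). With the gap as a covariate in limma the ventricular difference was 0.76 ± 0.31 (adjusted p = 0.999) for the brighter and 0.45 ± 0.14 (adjusted p = 0.925) for the dimmer probe set. Over the alternatives run, the brighter probe set's ventricular difference ran from 0.76 to 1.40, with adjusted p from 0.353 to 1, and the dimmer one's from 0.45 to 0.77, with adjusted p from 0.2 to 0.94. Without the 4 arrays of the widest gap, 2 per chamber, the brighter one was 1.03.

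Genes of the immediate early response, which tissue handling can induce, were summed up by the mean of 16 tested genes. That mean lay at 7.15 in sham and 7.54 in uninephrectomized ventricles, a difference of 0.39 with an exact permutation p of 0.0476 (0.13 adjusted over 52 tests). Between chambers the mean was higher in the atrium, by 0.90 in sham dogs. Its part in the RCAN1 differences was not tested. Across the 20 arrays the correlation of this mean with RCAN1 within groups was -0.029 (Pearson) and -0.026 (Spearman) for the brighter and 0.200 and 0.233 for the dimmer probe set (permutation p 0.904, 0.914, 0.392 and 0.321, adjusted over 20 relations 0.96, 0.914, 0.461 and 0.378).

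RCAN1 was lower in the atrium than in the ventricle in uninephrectomized dogs. Every uninephrectomized atrium lay below the ventricular mean, but the highest atrium, array 1 at 5.48, lay above the lowest ventricle, array 5 at 5.06. The difference was -1.15 ± 0.35 (adjusted p = 0.0204 in limma), a 2.21-fold change. The adjusted p rose to 0.0566 without uninephrectomized atrial array 5, 0.0518 without ventricular array 2 and 0.0618 without ventricular array 3. The dimmer probe set differed by -0.89 ± 0.15 (adjusted p = 0.00027 in limma) with groups that did not overlap, as 21% of all tested probe sets did not.

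In sham dogs the chamber difference of the brighter RCAN1 probe set was -0.68 ± 0.35 and did not pass (adjusted p = 0.188 in limma). It was -1.17 (adjusted p = 0.0125) with the 3' gap as a covariate and -0.97 (adjusted p = 0.0425) without sham ventricular array 3. Over the alternatives the adjusted p ran from 0.0111 to 0.387. The dimmer probe set differed by -0.38 ± 0.15 (adjusted p = 0.0927) without overlap between the groups, as 14.3% of all tested probe sets, and passed with the array number as a block in the 10 sham arrays (adjusted p = 0.0312) and with the gap as a covariate (adjusted p = 0.00613). Over its alternatives the adjusted p ran from 0.00486 to 0.197.

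Phospholamban was lower in the atrium in both operations, by less than 0.3 on the log2 scale. The probe set Cfa.21379.1.S1_s_at read 13.42, 13.58, 13.46, 13.43 and 13.51 in sham atria and 13.72, 13.58, 13.77, 13.68 and 13.85 in sham ventricles. Every sham atrium lay below every sham ventricle, though the closest pair met at 13.58. Of all tested probe sets 14.3% had no overlap between sham chambers. The difference was -0.24 ± 0.07 (adjusted p = 0.0123 in limma, exact permutation p = 0.00794), a 1.18-fold change. In uninephrectomized dogs the atria read 13.32, 13.24, 13.28, 13.54 and 13.37 and the ventricles 13.64, 13.66, 13.53, 13.72 and 13.59. Atrial array 4 overlapped the ventricles, and the difference was -0.27 ± 0.07 (adjusted p = 0.00385 in limma).

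The other PLN probe sets pointed the same way. Cfa.3165.1.S1_s_at ran from 13.17 to 13.25 in sham atria and from 13.40 to 13.50 in sham ventricles, a difference of -0.23 ± 0.05 (adjusted p = 0.00445 in limma). In uninephrectomized dogs it ran from 13.04 to 13.28 in atria and from 13.32 to 13.49 in ventricles, a difference of -0.27 ± 0.05 (adjusted p = 0.000732). The chambers did not overlap in either operation, as for 14.3% of all tested probe sets in sham and 21% in uninephrectomized dogs. Cfa.3165.1.S1_s_at had the smallest spread of the members, with a within-group SD of 0.064 that only 0.393% of tested probe sets undercut. Cfa.3165.2.A1_at, near log2 8, differed by -0.28 ± 0.10 in sham and -0.28 ± 0.10 in uninephrectomized dogs and passed in neither (adjusted p = 0.0641 and 0.0504 in limma). It passed in both with the array number as a random block (adjusted p = 0.0498 and 0.039) and after quantile normalization (-0.32, adjusted p = 0.0464, and -0.34, adjusted p = 0.0273), and in uninephrectomized dogs with a fixed block (adjusted p = 0.0498). Uninephrectomized arrays of the same number share only that number, so the block results in these dogs give no added support. Over its alternatives the adjusted p ran from 0.0213 to 0.247 in sham and from 0.0273 to 0.12 in uninephrectomized dogs.

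The chamber differences of the brighter PLN probe sets, but not that of Cfa.3165.2.A1_at, were smaller after quantile normalization. They then passed in uninephrectomized dogs only. The 124 tested probe sets with a mean of at least log2 13 had a median atrium minus ventricle difference of -0.15 in sham and -0.15 in uninephrectomized dogs. Quantile normalization, which gives every array the same distribution, brought these medians to 0.00 and -0.01, which follows largely from its construction. It cannot tell a difference of scaling from a chamber difference of the bright genes themselves. After it, Cfa.21379.1.S1_s_at differed by -0.06 in sham (adjusted p = 0.417 in limma) and -0.15 in uninephrectomized dogs (adjusted p = 0.0367), and Cfa.3165.1.S1_s_at by -0.14 in sham (adjusted p = 0.0731) and -0.20 in uninephrectomized dogs (adjusted p = 0.0107). In sham dogs the call of Cfa.21379.1.S1_s_at was also lost with the 3' gap as a covariate (-0.18, adjusted p = 0.0692), and with the array number as a fixed block in the 10 sham arrays, where the difference is the same -0.24 by construction (adjusted p = 0.0702). Over the alternatives its sham adjusted p ran from 0.00433 to 0.417, and in uninephrectomized dogs it ran from 0.00084 to 0.0367. That of Cfa.3165.1.S1_s_at ran from 0.00211 to 0.0731 and from 0.000203 to 0.0236.

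By mean, the groups of Cfa.21379.1.S1_s_at ran from uninephrectomized atrium at 13.35 ± 0.12 (SD) through sham atrium at 13.48 ± 0.07 (SD) and uninephrectomized ventricle at 13.62 ± 0.07 (SD) to sham ventricle at 13.72 ± 0.10 (SD). The groups of each chamber overlapped. After uninephrectomy all 3 PLN probe sets had negative differences in both chambers, and none passed. In the atrium Cfa.21379.1.S1_s_at differed by -0.13 ± 0.07, Cfa.3165.1.S1_s_at by -0.09 ± 0.05 and Cfa.3165.2.A1_at by -0.19 ± 0.10. In the ventricle the differences were -0.10 ± 0.07, -0.05 ± 0.05 and -0.19 ± 0.10. The smallest adjusted p of the 6 was 0.758 in limma. These probe sets report 1 gene in the same arrays, so their signs are not separate observations. Their deviations from the group means correlated at Pearson r of 0.700, 0.741 and 0.518 over 20 arrays (permutation p adjusted over 20 relations 0.0027, 0.002 and 0.0286). Spearman rho was 0.547, 0.654 and 0.453 (permutation p adjusted over 20 relations 0.0316, 0.0113 and 0.0715).

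ATP2A2, the pump that phospholamban restrains, did not pass between chambers, and its probe sets differed in sign. The brighter one, Cfa.97.1.S1_s_at, read 13.86, 14.08, 14.01, 13.97 and 13.92 in sham atria and 13.69, 13.81, 13.99, 13.79 and 13.88 in sham ventricles. The atria lay higher on average by 0.13 ± 0.07, which did not pass (adjusted p = 0.22 in limma), and the groups overlapped. In uninephrectomized dogs the atria read 13.90, 13.97, 13.75, 14.05 and 13.84 and the ventricles 13.76, 13.78, 13.62, 13.96 and 13.73, a difference of 0.13 ± 0.07 (adjusted p = 0.195). After quantile normalization these differences were 0.31 (adjusted p = 0.000452) and 0.35 (adjusted p = 9.65e-05) and passed, and the sham one also passed with the 3' gap as a covariate (0.21, adjusted p = 0.0498). Over the alternatives on this probe set alone the sham difference ran from 0.10 to 0.31, with adjusted p from 0.000452 to 0.413. The uninephrectomized one ran from 0.10 to 0.35, with adjusted p from 9.65e-05 to 0.398, and was -0.15 with the mean of both ATP2A2 probe sets.

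Between operations ATP2A2 differed by -0.06 ± 0.07 in the atrium and -0.06 ± 0.07 in the ventricle, with 95% intervals of -0.22 to 0.09 in each. The group means ran from 13.77 ± 0.12 (SD) in uninephrectomized ventricle through 13.83 ± 0.11 (SD) in sham ventricle and 13.90 ± 0.12 (SD) in uninephrectomized atrium to 13.97 ± 0.08 (SD) in sham atrium, each within the spread of its neighbour. With the 3' gap as a covariate the ventricular value was 0.0049, so its sign is not settled. The other ATP2A2 probe set, Cfa.9438.1.A1_at, was lower on average in the atrium, by -0.06 ± 0.24 in sham (adjusted p = 0.89 in limma) and -0.43 ± 0.24 in uninephrectomized dogs (adjusted p = 0.19), and neither difference passed. The uninephrectomized one passed with the replicate block and the 3' gap together (-0.53, adjusted p = 0.0487), where the block joins uninephrectomized arrays that share only a number. Over its alternatives the adjusted p ran from 0.0487 to 0.488. Between operations it ran from 6.35 to 7.76 in uninephrectomized and from 7.34 to 8.05 in sham atria, a difference of -0.47 ± 0.24 that did not pass (adjusted p = 0.765 in limma), and by -0.10 ± 0.24 between the ventricles. Its lowest array was uninephrectomized atrium 4, without which the atrial difference between operations was -0.25 (adjusted p = 0.774) and the chamber difference of uninephrectomized dogs -0.22 (adjusted p = 0.488).

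The ATP2A2 probe sets moved against each other within groups. Their deviations correlated at a Pearson r of -0.585 and a Spearman rho of -0.564 over 20 arrays (permutation p adjusted over 20 relations 0.0146 and 0.0303), and r was -0.372 without the 2 most extreme arrays. Cfa.97.1.S1_s_at read higher and Cfa.9438.1.A1_at lower where the 3' gap was wide (r = 0.553 and -0.577, rho = 0.478 and -0.462, adjusted permutation p of r 0.0205 and 0.0146, of rho 0.0618 and 0.0703), which fell to 0.334 and -0.270 without the 2 arrays of the most extreme gap. The mean of both probe sets differed between chambers by -0.15 in uninephrectomized dogs, the opposite sign of Cfa.97.1.S1_s_at alone.

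Within an array, scaling that acts alike on bright signals drops out of PLN minus ATP2A2. This difference of Cfa.21379.1.S1_s_at and Cfa.97.1.S1_s_at is not an amount of one transcript over the other, and only its change across groups can be read. It was -0.43, -0.49, -0.55, -0.54 and -0.41 in sham atria and 0.03, -0.23, -0.22, -0.10 and -0.03 in sham ventricles. In uninephrectomized dogs it was -0.59, -0.73, -0.47, -0.51 and -0.47 in atria and -0.13, -0.12, -0.09, -0.24 and -0.15 in ventricles. All 10 atria lay below all 10 ventricles. The chamber difference was -0.37 in sham and -0.41 in uninephrectomized dogs, and -0.37 and -0.50 after quantile normalization. Of all single tested probe sets, 14.3% had no overlap between sham chambers and 21% between uninephrectomized ones. The share among pairs of probe sets was not counted. This pair was chosen after its values were seen and gets no test. Between operations it differed by -0.07 in the atrium and -0.03 in the ventricle. All of this holds for ATP2A2 by Cfa.97.1.S1_s_at only. The other ATP2A2 probe set, Cfa.9438.1.A1_at, differed between chambers by -0.06 ± 0.24 in sham and -0.43 ± 0.24 in uninephrectomized dogs, and neither passed. The latter exceeds in size the -0.27 of PLN, so with that probe set the sign in uninephrectomized dogs would be the opposite.

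**Figure D2:**
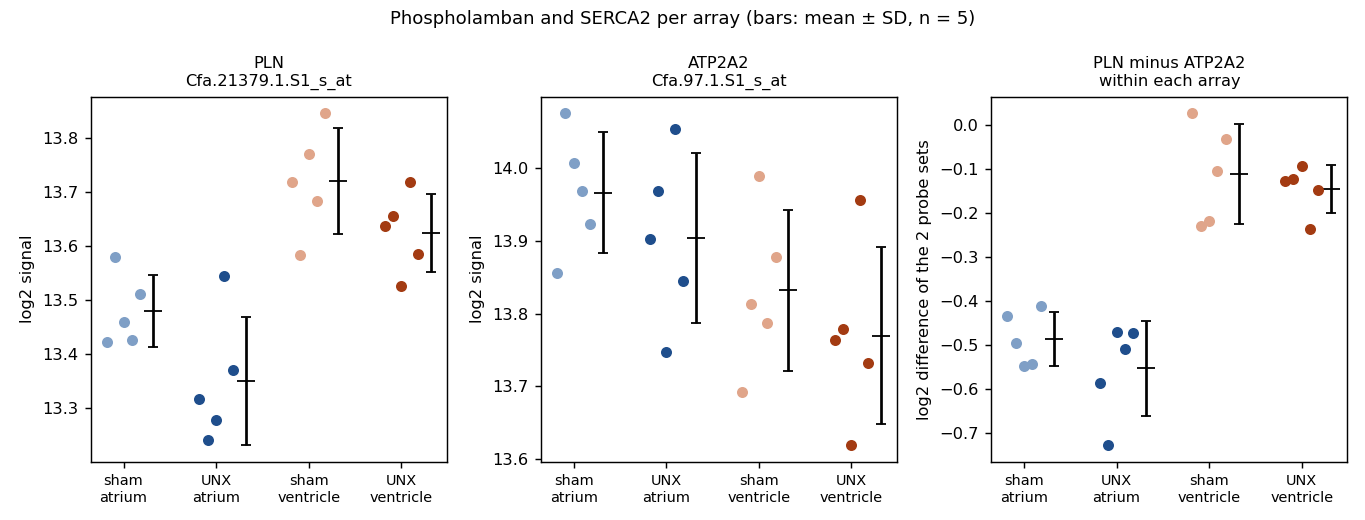
Log2 signal (UNX, uninephrectomized) of PLN (left) and ATP2A2 (middle) in each of 20 arrays, and their difference within each array (right), by group, with group mean and SD (n = 5). PLN is lower in the atria. ATP2A2, by Cfa.97.1.S1_s_at, is on average higher there but did not pass in limma, and its other probe set is on average lower. The within-array difference is -0.41 or lower in all 10 atria and -0.24 or higher in all 10 ventricles. This pair was chosen after its values were seen.

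Signals of cell type markers differed between chambers beside these results. Of 11 cardiomyocyte markers tested 6 were lower in the atrium in sham dogs and 6 in uninephrectomized dogs, with none higher. The mean of the list ran from 12.53 to 12.69 in sham atria and from 12.79 to 13.03 in sham ventricles, and differed between atrium and ventricle by -0.28 for sham and -0.35 for uninephrectomized dogs (0.0295 adjusted over 52 exact permutation tests). TNNI3, MB and TNNC1, abundant muscle cell genes, differed by -0.38, -0.38 and -0.30 in sham dogs, while TTN differed by -0.02 and ACTC1 by 0.07. Fibroblast markers were higher in the atrium for 5 of 8 genes in sham and 6 of 8 in uninephrectomized dogs, and their mean ran from 8.36 to 9.45 in sham atria and from 7.71 to 8.14 in sham ventricles. Smooth muscle markers were higher for 3 of 6 genes in sham dogs, and 4 were higher and 2 lower in uninephrectomized dogs. Adipocyte markers were higher for 3 of 6 genes in sham and 1 of 6 in uninephrectomized dogs, and their mean was higher in the atrium by 1.09 and 0.85 (0.0517 and 0.0295 adjusted over 52 exact permutation tests). The mean of 3 Schwann cell and neuronal markers was higher by 0.57 and 0.73 (adjusted 0.472 and 0.0295). Endothelial markers were lower for 3 and 1 of 8. In whole tissue, fewer cells of a type and less RNA per cell cannot be told apart, and the part of cell makeup in the chamber differences of PLN, SLC8A1 and RCAN1 was not tested.

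RYR2, the release channel, was close to level across groups. Cfa.269.1.A1_at read 12.79, 12.84, 12.77, 12.85 and 12.76 in sham atria and 12.88, 12.74, 12.82, 12.73 and 12.82 in uninephrectomized atria, a difference of -0.00 ± 0.06 in limma (95% interval -0.13 to 0.12). The sham ventricles read 12.76, 12.83, 12.87, 12.84 and 12.93 and the uninephrectomized ventricles 12.90, 12.82, 12.84, 13.14 and 12.88, a difference of 0.07 ± 0.06. Ventricular array 4 stood above the others. The chamber difference was -0.05 ± 0.06 in sham and -0.12 ± 0.06 in uninephrectomized dogs, and neither passed (adjusted p = 0.66 and 0.162). All 4 group means lay between 12.80 and 12.92, and neighbours in their order differed by no more than the spread between arrays.

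The dimmer RYR2 probe set, Cfa.3475.1.S1_s_at, varied far more, with a within-group SD of 0.495 against 0.082 for Cfa.269.1.A1_at. It ran from 5.67 to 7.58 in uninephrectomized atria and from 7.05 to 7.68 in uninephrectomized ventricles, a difference of -0.61 ± 0.29 that did not pass (adjusted p = 0.135 in limma). Between operations it differed by -0.29 ± 0.29 in the atrium and 0.10 ± 0.29 in the ventricle, where it was -0.30 with the 3' gap as a covariate. Its deviations were uncorrelated with those of Cfa.269.1.A1_at over 20 arrays (Pearson r = -0.006, Spearman rho = -0.108, permutation p 0.981 and 0.648, adjusted over 20 relations 0.981 and 0.682). They followed the 3' gap at r = -0.736 and rho = -0.737 (permutation p adjusted over 20 relations 0.002 and 0.00473), and r was -0.624 without the 2 arrays of the most extreme gap. With the gap as a covariate the chamber difference passed in uninephrectomized (-0.75, adjusted p = 0.0101) and in sham dogs (-0.69, adjusted p = 0.0404). Over the alternatives the adjusted p ran from 0.00771 to 0.363 in uninephrectomized and from 0.0348 to 0.949 in sham dogs. Cfa.269.1.A1_at showed no such relation with the gap (r = -0.027, rho = 0.116, permutation p 0.912 and 0.627, adjusted 0.96 and 0.682).

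**Figure D3:**
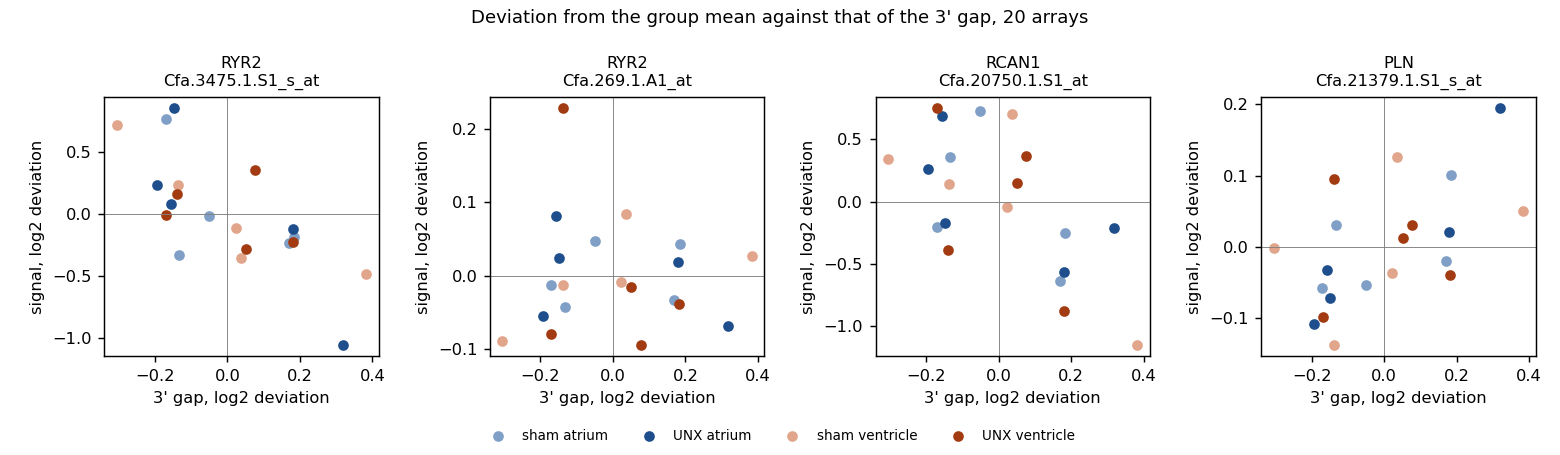
Deviation of the log2 signal from its group mean against that of the 3' gap in 20 arrays, for both RYR2 probe sets, the brighter RCAN1 and a PLN probe set, coloured by group (UNX, uninephrectomized). The first RYR2 panel and RCAN1 slope down, PLN slopes up at r = 0.556 and rho = 0.597 (permutation p adjusted over 20 relations 0.0195 and 0.0207), and the second RYR2 panel shows no slope.

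The sodium-calcium exchanger SLC8A1 was lower in the atrium in both operations. CfaAffx.10671.1.S1_at read 3.80, 3.43, 3.43, 3.40 and 4.05 in sham atria and 4.20, 4.39, 3.92, 3.97 and 4.11 in sham ventricles. Only sham atrial array 5 reached the ventricular range, and the difference was -0.50 ± 0.14 (adjusted p = 0.0129 in limma), a 1.41-fold change. In uninephrectomized dogs the atria read 3.72, 3.87, 3.68, 3.84 and 3.91 and the ventricles 3.89, 4.46, 4.41, 4.50 and 4.13. Here the groups met at atrial array 5 and ventricular array 1, and the difference was -0.48 ± 0.14 (adjusted p = 0.0129). Without the 2 arrays of the widest 3' gap in each chamber the sham difference was -0.51 (adjusted p = 0.0637). Over the alternatives on this probe set alone the sham adjusted p ran from 0.00169 to 0.0637. By mean, the groups ran from sham atrium at 3.62 ± 0.29 (SD) through uninephrectomized atrium at 3.80 ± 0.10 (SD) and sham ventricle at 4.12 ± 0.19 (SD) to uninephrectomized ventricle at 4.28 ± 0.26 (SD).

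The other SLC8A1 probe set, Cfa.2384.1.A1_at, read under log2 3 in 19 of 20 arrays and differed between chambers by -0.17 ± 0.16 in sham and -0.13 ± 0.16 in uninephrectomized dogs, neither of which passed (adjusted p = 0.48 and 0.579 in limma). Its signal was lower where the 3' gap was wide (r = -0.664, rho = -0.636, permutation p adjusted over 20 relations 0.00544 and 0.0122, r = -0.607 without the 2 most extreme arrays). With the gap as a covariate its sham difference passed at -0.39 (adjusted p = 0.0475), and over its alternatives the adjusted p ran from 0.04 to 0.793. Both probe sets deviated together within groups (r = 0.707, rho = 0.717, permutation p adjusted over 20 relations 0.0027 and 0.00473). Their mean differed by -0.33 in sham (adjusted p = 0.0879) and -0.30 in uninephrectomized dogs (adjusted p = 0.105), so the call rests on CfaAffx.10671.1.S1_at. Uninephrectomized arrays were on average above sham arrays for this probe set, by 0.18 ± 0.14 in the atrium and 0.16 ± 0.14 in the ventricle, and neither difference passed (adjusted p = 0.821 and 0.84).

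**Figure D4:**
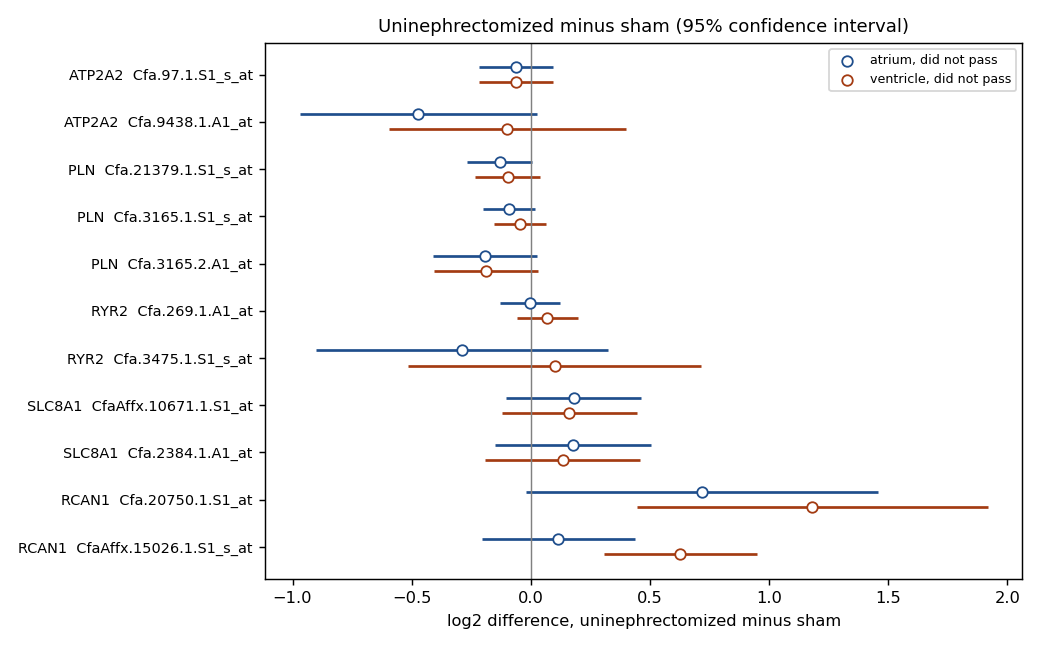
Log2 difference, uninephrectomized minus sham, of each of the 11 probe sets in atrium and ventricle, with 95% confidence intervals (n = 5 per group); open circles did not pass. The intervals of the RCAN1 probe sets in the ventricle lie above 0, and no difference passed after adjustment.

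**Figure D5:**
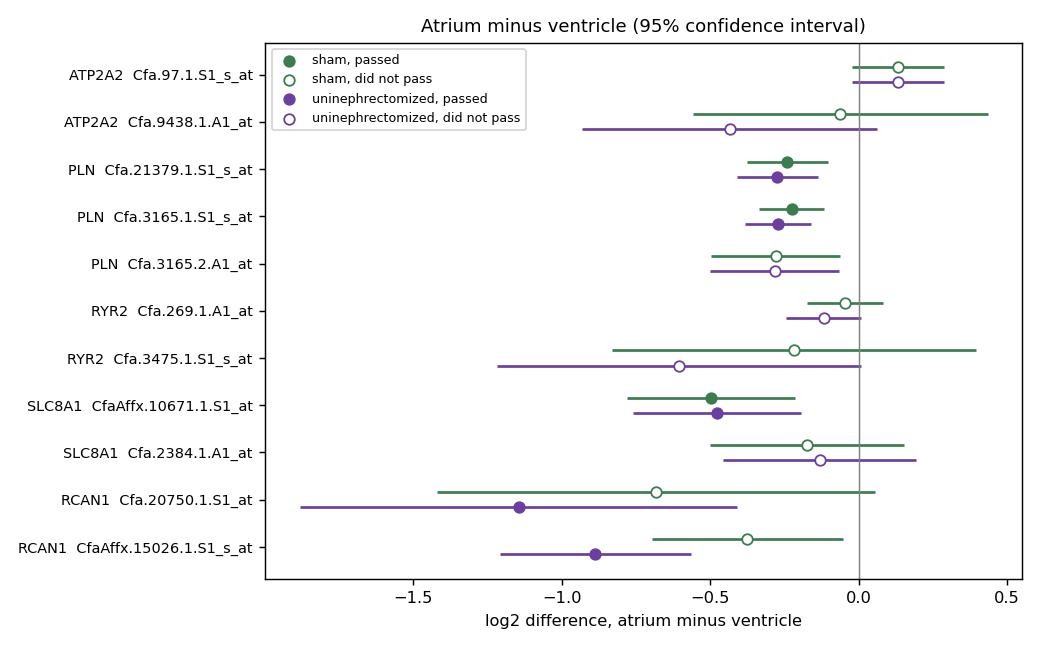
Log2 difference, atrium minus ventricle, of each of the 11 probe sets in sham and uninephrectomized dogs, with 95% confidence intervals (n = 5 per group); filled circles passed at an adjusted p under 0.05. All 8 filled circles lie below 0, and ATP2A2 Cfa.97.1.S1_s_at is the probe set with positive differences.

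Partners of these genes were taken from 5 lists with 122 genes, of which 105 had a probe set with 1 symbol and 93 passed the filter. None of the 93 passed after uninephrectomy in either chamber (0% of 11423 genes in each). Between chambers 9 were higher and 12 lower in the atrium in sham dogs, and 15 were higher and 16 lower in uninephrectomized dogs. That is 21 and 31 of 93 beside 22.8% and 29.9% of all genes tested with 1 probe set each, of which 12% were higher and 10.8% lower in sham and 16.2% higher and 13.7% lower in uninephrectomized dogs. The median difference of the 93 was -0.03 in sham and -0.04 in uninephrectomized dogs. The chamber contrasts of the operations share no array but use the same estimate of the spread, pooled over all groups. In both, 18 genes passed, with 18 in the same direction. That is 85.7% of those that passed in sham and 58.1% of those that passed in uninephrectomized dogs. The same shares over all genes were not counted, so these cannot be read as particular to the lists.

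The calcineurin and NFAT list held the largest sham chamber differences of the 93 genes, in both directions. Of 24 tested genes 3 were higher and 5 lower in the sham atrium, with a median of 0.06. MYOZ1, a Z-disc protein of the calsarcin family that binds calcineurin, had means of 9.12 in sham atria and 6.36 in sham ventricles, a difference of 2.76 ± 0.35 (adjusted p = 1.32e-05 in limma). Its relative MYOZ2 went the other way by -0.48 ± 0.05 (adjusted p = 3.85e-06). FHL2, a LIM protein that restrains calcineurin, differed by -3.02 ± 0.27 (adjusted p = 1.69e-07), lower in the atrium, and LMCD1, another LIM protein, by -2.11 ± 0.23. AKAP5, an anchor of calcineurin and protein kinase A, was higher by 0.55 and the transcription factor MEF2C by 0.53, while CIB1, which holds calcineurin at the surface membrane, differed by -0.25, lower in the atrium. CIB1 did not pass in uninephrectomized dogs, at -0.10 (adjusted p = 0.355). PPP3CC, a catalytic subunit of calcineurin, also passed at -0.24. The AKAP5 signal is dim, at 2.71 and 2.16.

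The catalytic subunit PPP3CA was higher in the uninephrectomized atrium by 0.49 ± 0.11 (adjusted p = 0.0033 in limma) and did not pass in sham dogs, at 0.30 ± 0.11 (adjusted p = 0.0672). The difference between these was 0.19 ± 0.16 (adjusted p = 1). RCAN2 and RCAN3, the relatives of RCAN1, did not pass in any comparison. RCAN2 differed by -0.16 ± 0.10 in the atrium and -0.10 ± 0.10 in the ventricle after uninephrectomy, and RCAN3 by -0.12 ± 0.27 and 0.28 ± 0.27.  The NFAT genes NFATC1, NFATC2, NFATC3 and NFATC4 all had group means under log2 3, and none passed. PPP3CC, the chamber values of PPP3CA, RCAN2, RCAN3 and the NFAT genes were chosen after their values were seen. By smallest p in the list, LMCD1 differed by 0.60 ± 0.23 and MEF2C by -0.24 ± 0.11 after uninephrectomy in the atrium, and PPP3CA by -0.22 ± 0.11 and AKAP5 by -0.22 ± 0.12 in the ventricle.

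Of 19 tested genes of the sarcoplasmic reticulum 3 were higher and 2 lower in the sham atrium. ITPR1, a receptor for inositol trisphosphate, was higher by 0.83 ± 0.14 from a dim 2.43, S100A1, a calcium sensor that stimulates SERCA2 and RYR2, by 0.70 ± 0.14, and ATP2A1, the pump of fast skeletal muscle, by 0.68 ± 0.09. ASPH, whose locus encodes junctin, differed by -0.84 ± 0.13 and TRDN, which encodes triadin, by -0.41 ± 0.13, both lower in the atrium. Triadin and junctin both bind the ryanodine receptor. TRDN was at -0.27 in uninephrectomized dogs and did not pass there (adjusted p = 0.131 in limma). After uninephrectomy TRDN differed by 0.29 ± 0.13 and S100A1 by -0.25 ± 0.14 in the atrium, and HRC, a calcium-binding protein of the reticulum, by 0.22 ± 0.11 in the ventricle. FKBP1B, which stabilises RYR2, differed by -1.34 ± 0.92 in the ventricle, where the spread between arrays was wide. SLN, CASQ2 and JPH2 had no probe set with 1 symbol and are not analysed here.

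Of 20 tested genes of the surface membrane, TRPC1, a cation channel, was the 1 that passed in sham dogs, higher in the atrium by 0.66 ± 0.19 (adjusted p = 0.0157 in limma); at 0.48 it did not pass in uninephrectomized dogs. Of 9 mitochondrial calcium genes 2 were lower in the sham atrium: VDAC1, a channel of the outer membrane, differed by -0.63 ± 0.09 and MICU2, a gatekeeper of the calcium uniporter, by -0.38 ± 0.06. Of 21 genes of kinases, phosphatases and second messengers 2 were higher and 3 lower. CALM2, 1 of the calmodulin genes, was higher by 0.42 ± 0.06 and AKAP12, an anchor of protein kinase A, by 0.70 ± 0.18. PRKACB, a catalytic subunit of protein kinase A, differed by -1.39 ± 0.40, PPP1CA, a catalytic subunit of protein phosphatase 1, by -0.29 ± 0.06, and PPP1R1A, an inhibitor of that phosphatase, by -1.09 ± 0.16, all lower in the atrium. Protein phosphatase 1 dephosphorylates phospholamban and protein kinase A phosphorylates it. Each of these mitochondrial and kinase genes also passed in uninephrectomized dogs, in the same direction.

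In these lists the genes of smallest p after uninephrectomy did not pass either. In the atrium they were CACNB3, a calcium channel subunit, at 0.39 ± 0.14, ATP2B4, a calcium pump of the surface membrane, at 0.20 ± 0.10, CAMK2B at -0.40 ± 0.18 and CAMK2G at -0.31 ± 0.16, both subunits of calcium/calmodulin kinase, LETM1 at -0.14 ± 0.09 and VDAC1 at 0.10 ± 0.09. In the ventricle they were ORAI3 at 0.23 ± 0.13 and STIM1 at -0.14 ± 0.09, both of store-operated calcium entry, the phosphodiesterase gene PDE4B at -0.17 ± 0.08, PPP1CA at 0.12 ± 0.06, SMDT1 at -0.07 ± 0.05 and MICU3 at -0.10 ± 0.09. Their smallest adjusted p in limma was 0.679.

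For each member, the 3 genes whose deviations from the group means followed it most closely over 20 arrays were found among 11418 genes. For ATP2A2 they were COPS7A (Pearson r = 0.879), MDH1 (0.856) and GNMT (0.851), and for PLN LOC485516 (0.860), CTC1 (0.857) and LOC478576 (0.845). For RYR2 they were NOA1 (0.771), KLK7 (0.770) and CPT1B (0.757), and for SLC8A1 DIS3 (0.828), E2F6 (0.787) and PDE1C (0.765). For RCAN1 they were C18H11orf49 (0.801), ATP8B1 (0.780) and CEP164 (0.776). These are the highest of many correlations and carry no p. Deviations were shared across genes: their first component held 19.1% of their variance and correlated with the 3' gap at 0.926 in size. What this component reflects was not tested.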

How the data were processed

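The deposited values are log2 signals of 20 Affymetrix canine arrays; per the labels' protocols, RNA was extracted with Trizol and 100 ng was labelled with the IVT Express kit. The summarization and normalization method behind them was not given in the sources used here. Values lay between 0.43 and 15.0 and entered the tests unchanged. The number of arrays limits the precision. The p-values rest on the spread between these samples, which limma pools over the groups and moderates across probe sets. The supplied annotation, which can be old, gives 1 gene symbol for 29264 probe sets and several for 439; the other 13332 are unlisted.

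Of 43035 probe sets, 111 controls and the 30% with the lowest mean (under log2 1.87) were left out, which left 30047. Limma 3.58.1 (lmFit and eBayes, two-sided) in R 4.3.3 fitted a mean per group with 16 residual degrees of freedom and 5 contrasts. The code was tested on simulated data. Genes of lists are represented by the probe set with the highest mean, and a member's main probe set was chosen the same way. Named from the lists were up to 4 genes per direction with the largest sham chamber difference among those that passed, the 2 with the smallest p in each uninephrectomy contrast, and the 3 most similar genes per member; the text says where a gene was chosen otherwise. The members and lists were chosen with earlier results of these data known. The 3' gap leaves out all 5' control probe sets, because those of ACTB (means 4.07 and 4.43) and EEF1A (1.86) were far dimmer than the middle ones; that of GAPDH was at 12.8. This was settled after their values were seen.

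Replicate numbers 1 to 5 recur in every group. Deviations from the group means of sham atrial and ventricular arrays with the same number correlated at 0.463, 0.227, 0.373, 0.295 and 0.209 across probe sets, so the numbers were read as pairing the sham arrays. The fit and the permutation tests are unpaired, and the pairing entered only through the replicate block alternatives. No label states this pairing, and variation with the 3' gap was not taken out of these correlations. Alternatives were other scalings, filters, array weights, prior variance, replicate blocks, the 3' gap as a covariate, leaving out each array, and, chosen after seeing the data, leaving out the 2 arrays of the widest 3' gap in each chamber. The mean of a gene's probe sets and the exact permutation test were also run, but ranges over the alternatives leave them out. For a member's other probe sets the ranges cover the covariate, block, scaling and leave-one-out fits.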

Additional observations from a re-analysis of the deposited data

Results flagged for a closer look

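Of 44 combinations of a member probe set and a group of 5 arrays, 2 held an array far from the others, where chance flags about 1 in 20 groups. RYR2 Cfa.269.1.A1_at read 13.14 in uninephrectomized ventricular array 4, while the other 4 ventricles of that group read 12.82 to 12.90. RYR2 Cfa.3475.1.S1_s_at read 7.78 in sham atrial array 1, while the others of that group read 6.683 to 6.995.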

How the results depend on the processing

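With adjusted p, none of the 11 member probe sets and 93 partner genes was called after uninephrectomy under the alternatives run; by the unadjusted exact permutation test RCAN1 in the ventricle was (p = 0.0238), 1 of the 8 gained calls below. Of the counts of calls, 461 stayed within a factor of 1.5 and 7 did not; of the members' differences 774 kept direction and side of the threshold, 8 gained and 10 lost a call, and 33 changed sign. Member probe sets called between sham chambers rose from 3 to 7 with the 3' gap as a covariate, with or without the replicate block. All sham chamber calls fell from 6257 to 4064 without the 2 arrays of the widest gap in each chamber, with fewer arrays in that fit. Leaving out 1 array gave 0 to 1 calls after uninephrectomy in the atrium, 1 without sham atrial array 5, and 0 to 4 in the ventricle, 4 without sham ventricular array 1 and 1 without uninephrectomized ventricular array 1 or 4. The sign changes were all of differences near 0 but 1, and the cause was not tested. RYR2 in the atrium was 0.0077 with arrays shifted to 1 median, 0.0028 after quantile normalization, 0.0011 with array weights, 0.025 without the widest gaps, and -0.023 to 0.014 with 1 array left out. ATP2A2 in the ventricle was 0.0025 with block and gap, 0.0049 with the gap and 0.0060 without the widest gaps. The difference of the effects between chambers was, for ATP2A2, 0.0079 with shifted medians, 0.043 after quantile normalization and -0.040 to 0.046 with 1 array left out, for SLC8A1 -0.077 to 0.13, and for PLN -0.082 to 0.00055. ATP2A2 between uninephrectomized chambers was -0.15 with the mean of its probe sets. With the replicate block by duplicateCorrelation (consensus correlation 0.093) 4 member probe sets were called between sham and 6 between uninephrectomized chambers; with a fixed replicate block in 10 arrays, 3 and 6. The block alone changed no other member call than those given with PLN and RCAN1. Uninephrectomized arrays of the same number correlated at -0.061, -0.069, 0.115, -0.235 and 0.097, so they share only a number. In the data, atrial arrays 1 to 5 were closest to ventricular arrays 3, 4, 1, 5 and 2 (0.437, 0.323, 0.167, 0.536 and 0.298). Signals under log2 3 compress differences, which limits the dimmer RCAN1 and SLC8A1 probe sets.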
